A study of Mus musculus with 12 samples.

Results

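Fc receptors bind the constant part of antibodies, and 9 mouse genes of this function and of the Ms4a family were followed here across 4 groups of macrophages. They are Fcgr1, Fcgr3 and Fcgr4, which encode activating receptors for IgG, Fcer1g, which encodes the signalling chain those receptors share, Fcgr2b, which encodes the inhibitory IgG receptor, and Ms4a7, Ms4a6b, Ms4a6c and Ms4a6d of the Ms4a family. The members were the listed symbols in the array's probe annotation, taken only from probe sets that name 1 gene, and they make up 9 of the 19937 genes measured. Each of the 9 had 1 such probe set: 10500335 for Fcgr1, 10360040 for Fcgr3, 10351509 for Fcgr4, 10360070 for Fcer1g, 10360028 for Fcgr2b, 10466200 for Ms4a7, 10461622 for Ms4a6b, 10461614 for Ms4a6c and 10466210 for Ms4a6d.

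The study measured newly made RNA in C57BL/6 mouse macrophages on 12 whole-transcript arrays, 3 per group. BMM, macrophages derived from bone marrow, were grown with M-CSF in DMEM, and MPI-2, a self-renewing line from fetal liver, was grown with GM-CSF in RPMI, both with 10% fetal calf serum. Each was mock-treated or given LPS, the lipid-bearing outer component of Gram-negative bacteria. RNA was labelled with 4-thiouridine for 60 min, from 30 min to 90 min after LPS in the treated groups, and the labelled RNA was purified, so the values follow transcription in that hour and not the standing pool of RNA or protein. MPI-2 is 1 line, and cell type, growth factor and medium change together, so a difference between MPI-2 and BMM cannot be told apart from one between M-CSF and GM-CSF or between the media. The titles call the arrays biological replicates but do not name an animal or a culture for any of them, and the p-values therefore cover the spread between these samples alone, which may be technical.

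As background, the activating IgG receptors have short tails and signal through the paired Fcer1g chain, whose tyrosine motif recruits the kinase Syk. Fcgr2b carries an inhibitory motif in its own tail, which recruits the phosphatase SHIP1 (Inpp5d), and the balance between both kinds sets how strongly a macrophage answers immune complexes. Ms4a proteins are small membrane proteins that cross the membrane several times, and the genes studied here lie in a cluster in which B cell CD20 (Ms4a1) and the mast cell IgE receptor chain (Ms4a2) are also found.

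Values are log2 expression, for which a step of 1 is a doubling, and levels are compared between groups for the same gene and never between genes. The background level was 3.36, below which 95% of 1027 olfactory receptor genes lay. Arrays of a group correlated at 0.953 to 0.978 in BMM and at 0.986 to 0.99 in MPI-2 over all probe sets. LPS-induced Il6, a cytokine gene, rose from 2.76 to 9.87 in BMM and from 3.87 to 10.7 in MPI-2, whereas Ifnb1, which encodes interferon beta, stood at 2.84 and 8.96 in mock and LPS BMM and at 2.56 and 2.71 in MPI-2. Of 11 measured macrophage markers, 10 were above background in every group, and Aif1 was below it in all of them.

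The start regions of 3 Fc receptor genes are shown first as examples. The LPS responses of these genes differed between the cell types, as did that of Fcgr3, whose start region is not printed. Each line gives the 250 bases before the RefSeq transcript start (GRCm38.p6), 5′ to 3′ on the gene's strand, with matches to the searched motifs in capitals. Fcgr1 lies on chromosome 3 (chr3:96293970-96294219, minus strand), and Fcgr4 (chr1:171018676-171018925, plus strand) and Fcgr2b (chr1:170976072-170976321, minus strand) lie on chromosome 1.
Fcgr1: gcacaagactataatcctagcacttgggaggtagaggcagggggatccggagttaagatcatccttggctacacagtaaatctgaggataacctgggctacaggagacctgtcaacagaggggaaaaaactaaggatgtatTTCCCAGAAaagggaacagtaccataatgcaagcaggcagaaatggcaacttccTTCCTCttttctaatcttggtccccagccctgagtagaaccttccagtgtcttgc
Fcgr4: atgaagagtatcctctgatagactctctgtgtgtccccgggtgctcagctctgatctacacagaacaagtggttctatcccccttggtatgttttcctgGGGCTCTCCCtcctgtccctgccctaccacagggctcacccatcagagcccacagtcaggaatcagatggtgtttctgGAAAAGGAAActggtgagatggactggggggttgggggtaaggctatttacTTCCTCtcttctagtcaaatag
Fcgr2b: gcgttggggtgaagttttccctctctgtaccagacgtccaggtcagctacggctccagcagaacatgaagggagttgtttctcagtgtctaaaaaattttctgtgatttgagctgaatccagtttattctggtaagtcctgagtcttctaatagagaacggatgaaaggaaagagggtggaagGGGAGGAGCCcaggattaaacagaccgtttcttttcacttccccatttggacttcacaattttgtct

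Letters were searched for on both strands as GAS (TTCNNNGAA, known from interferon gamma targets), the ISRE core (GAAA, any 2 bases, then GAAA, known from type I interferon targets), kappaB (GGGA, any 4 bases, then CC, bound by NF-kB) and the Ets core of PU.1 (GAGGAA). The Fcgr1 window held TTCCCAGAA, a GAS match, at bases 109 to 101 before the start, and 7.01% of 32817 RefSeq windows of the same length hold one. Fcgr4 held the ISRE core GAAAAGGAAA at bases 73 to 64 before the start, where 2.97% of windows hold one. The kappaB letters were in the windows of Fcgr2b, Fcgr4, Fcgr3, Fcer1g and Ms4a6c, against 17.6% of all windows, and the Ets letters in those of Fcgr1, Fcgr3 and Fcgr4, against 23.3%. No searched motif was in the windows of Ms4a7 or Ms4a6b, and no motifs overlapped within a member's window. These matches describe letters, and whether any is bound or bears on the RNA was not tested. The table held 8 of the 9 members in 10 windows and had no entry for Ms4a6d.

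Ms4a6b (chr19:11518309-11518558, plus strand) and Ms4a6c (chr19:11469118-11469367, plus strand) are close relatives on chromosome 19, and their start regions were compared for identical runs. Capitals mark runs of at least 12 bases found in both, which cover 72 of 250 bases, or 28.8%, with a longest run of 48. The windows were not aligned, and shorter runs or stretches that are alike but not identical were not counted.
Ms4a6b: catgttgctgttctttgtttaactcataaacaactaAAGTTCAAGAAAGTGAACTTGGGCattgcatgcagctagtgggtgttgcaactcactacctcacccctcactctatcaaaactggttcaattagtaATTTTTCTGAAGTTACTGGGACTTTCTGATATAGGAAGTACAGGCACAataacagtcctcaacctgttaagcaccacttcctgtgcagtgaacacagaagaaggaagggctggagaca
Ms4a6c: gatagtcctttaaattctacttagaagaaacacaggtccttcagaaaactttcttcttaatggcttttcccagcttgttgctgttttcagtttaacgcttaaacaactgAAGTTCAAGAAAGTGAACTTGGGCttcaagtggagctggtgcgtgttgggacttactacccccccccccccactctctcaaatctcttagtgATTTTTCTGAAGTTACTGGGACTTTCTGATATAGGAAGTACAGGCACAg
Transcripts of the Ms4a6 genes, and those of Fcgr2b, Fcgr3 and Fcgr4, are also alike, so probes may take up some RNA of a relative. How far that happened was not tested.

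**Figure D1:**
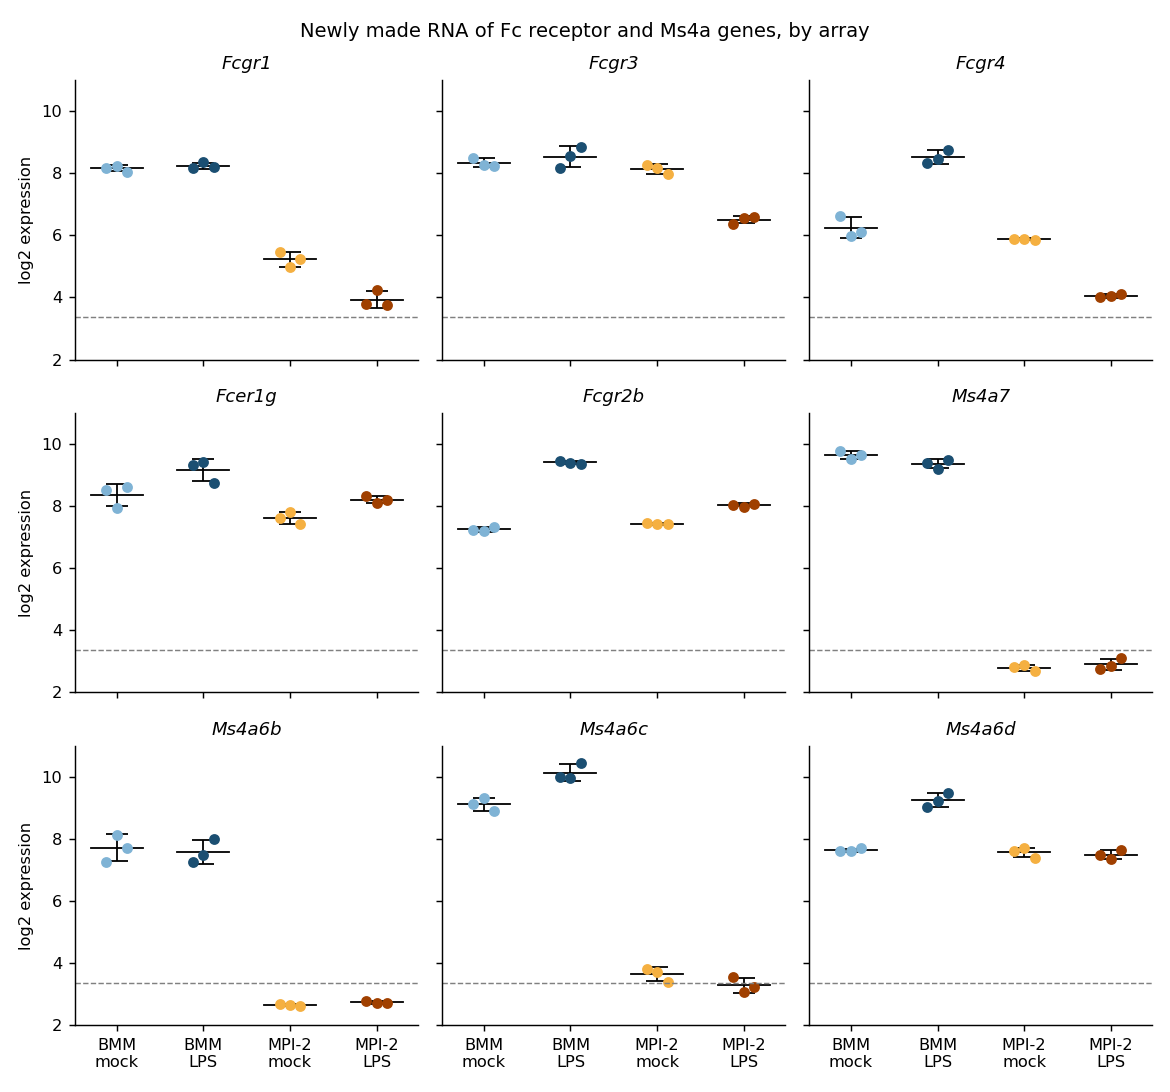
Log2 expression of newly made RNA for the 9 genes (vertical axes) in mock and LPS BMM and MPI-2, with 1 point per array, a bar at the mean, whiskers of 1 SD (n = 3) and a dashed line at the background level of 3.36. Fcgr1, Fcgr3 and Fcgr4 lie lower in LPS than in mock MPI-2, and Ms4a7 and Ms4a6b lie under the dashed line on all 6 MPI-2 arrays.

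In BMM, LPS raised 5 of the 9 genes and lowered none. Fcgr4 rose 4.84-fold, Fcgr2b 4.45-fold, Ms4a6d 3.05-fold, Ms4a6c 2.02-fold and Fcer1g 1.75-fold, so an activating receptor, the shared chain and the inhibitory receptor were all higher in the new RNA of the same hour. Among all genes, 25.7% passed the test in this comparison, 10.3% higher and 15.4% lower. At an unadjusted p of 0.05 in limma, 1 member, Ms4a7, was lower. The median log2 difference of the members was 0.81, beside 0.04 over all genes. In bulk samples, fewer cells of a type and less RNA per cell cannot be told apart.

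In MPI-2, LPS lowered the 3 activating receptor genes and raised the inhibitory one. Fcgr4 fell 3.55-fold, Fcgr3 3.09-fold and Fcgr1 2.45-fold, and Fcgr2b rose 1.53-fold. Among all genes, 14.8% passed the test, 5.17% higher and 9.58% lower. The 5 other members did not pass, and the members' median log2 difference was -0.07, beside 0.02 over all genes. The test of the difference between both responses passed for 6 members, all with the lower response in MPI-2 (Fcgr1, Fcgr3, Fcgr4, Fcgr2b, Ms4a6c and Ms4a6d), beside 13.4% of all genes, 7.08% higher and 6.27% lower.

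**Figure D2:**
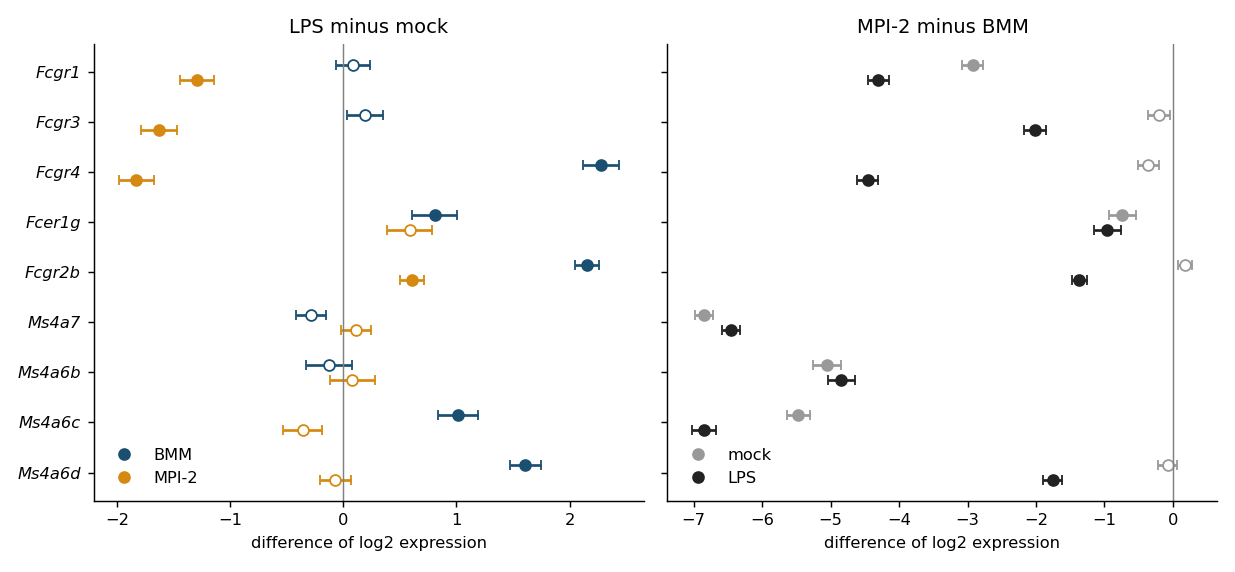
Differences of log2 expression (horizontal axes) for the 9 genes, LPS minus mock in BMM and MPI-2 on the left and MPI-2 minus BMM in mock and LPS cells on the right, with whiskers of 1 SE from limma. Filled points passed an adjusted p of 0.05 and open ones did not. Fcgr4 lies at 2.27 in BMM and at -1.83 in MPI-2.

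Fcgr4 encodes a mouse activating receptor that binds IgG2a and IgG2b. Its RNA was at 6.62, 5.99 and 6.10 on the mock BMM arrays, 8.33, 8.45 and 8.75 with LPS, 5.89, 5.89 and 5.85 in mock MPI-2 and 4.01, 4.03 and 4.11 in LPS MPI-2. No neighbouring groups overlapped, and LPS moved all arrays up in BMM and all down in MPI-2. Over all genes, LPS and mock arrays did not overlap for 32% in BMM and 37.1% in MPI-2. Between cell types the share without overlap was 52.4% in mock and 55.4% in LPS cells. The rise in BMM was 2.27 ± 0.16 (log2 difference ± SE, adjusted p = 2.93e-08) and the change in MPI-2 was -1.83 ± 0.16 (adjusted p = 9.76e-07). The difference of both responses was -4.10 ± 0.22 (adjusted p = 1.19e-08). With LPS, Fcgr4 was 22.0-fold lower in MPI-2 than in BMM (-4.46 ± 0.16, adjusted p = 4.37e-12), whereas in mock cells the difference of -0.36 (95% interval -0.69 to -0.02) did not pass (adjusted p = 0.0893). Without mock BMM replicate 2 the latter was -0.48 and passed (adjusted p = 0.0352). The LPS level in MPI-2 lay 0.68 above background, close to the limit of what the array can show.

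Fcgr1 encodes the high-affinity IgG receptor. Its values were 8.17, 8.23 and 8.04 in mock BMM and 8.16, 8.34 and 8.20 in LPS BMM, and these groups overlapped. In MPI-2 they were 5.45, 4.98 and 5.23 in mock and 3.80, 4.24 and 3.75 with LPS, all below every BMM array. The response to LPS was 0.09 ± 0.15 in BMM (95% interval -0.23 to 0.41, adjusted p = 0.729) and -1.29 ± 0.15 in MPI-2 (adjusted p = 2.28e-05). Both responses differed by -1.38 ± 0.21 (adjusted p = 0.000359). Fcgr1 was lower in MPI-2 by 7.60-fold in mock cells and by 19.8-fold with LPS (adjusted p = 4.46e-10 and 4e-12). Its level in LPS MPI-2 was 0.57 above background.

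Fcgr3 encodes a low-affinity activating receptor. On the mock arrays it stood at 8.49, 8.27 and 8.22 in BMM and at 8.27, 8.15 and 7.97 in MPI-2, with overlap. LPS arrays gave 8.16, 8.55 and 8.84 in BMM and 6.37, 6.56 and 6.58 in MPI-2, with none. The gene fell by 1.63 on the log2 scale in MPI-2 (SE 0.16, adjusted p = 3.38e-06), while its response in BMM was 0.19 ± 0.16 (95% interval -0.15 to 0.53, adjusted p = 0.433). The responses differed by -1.82 ± 0.23 (adjusted p = 4.35e-05). The mock groups differed by -0.20 (95% interval -0.54 to 0.14, adjusted p = 0.353), and with LPS the gene was 4.04-fold lower in MPI-2 (adjusted p = 4.45e-08).

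Fcer1g, the shared chain, was not among the genes that fell. It measured 8.50, 7.93 and 8.62 in mock BMM, 9.32, 9.42 and 8.75 in LPS BMM, 7.61, 7.81 and 7.41 in mock MPI-2 and 8.32, 8.08 and 8.20 in LPS MPI-2. In each cell type the LPS arrays were all above the mock arrays. Over all genes, LPS and mock arrays also stood apart for 32% in BMM and 37.1% in MPI-2. The rise in BMM was 0.81 ± 0.20 (adjusted p = 0.00589). In MPI-2 the value was 0.59 ± 0.20 (95% interval 0.17 to 1.01), which did not pass (adjusted p = 0.0606) but passed without mock BMM replicate 2 (adjusted p = 0.0278) and without LPS BMM replicate 3 (adjusted p = 0.0218), since all arrays share 1 estimate of the spread. The responses differed by -0.22 (95% interval -0.81 to 0.37, adjusted p = 0.746), and the level in MPI-2 was lower by 1.67-fold in mock and by 1.95-fold in LPS cells (adjusted p = 0.0071 and 0.00091). With the number in the library names as a replicate block, the mock difference was -0.57 and did not pass (adjusted p = 0.0763).

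Fcgr2b, the inhibitory receptor, had the smallest SE of the 9 genes. Its levels were 7.22, 7.18 and 7.33 in mock BMM, 9.46, 9.38 and 9.35 in LPS BMM, 7.45, 7.41 and 7.41 in mock MPI-2 and 8.04, 7.98 and 8.07 in LPS MPI-2. No groups overlapped, and LPS arrays were higher in both cell types. Absence of overlap between LPS and mock arrays held for 32% of all genes in BMM and 37.1% in MPI-2. LPS raised it by 2.15 ± 0.11 in BMM (adjusted p = 6.66e-10) and by 0.61 ± 0.11 in MPI-2 (adjusted p = 0.000799). The response was smaller in MPI-2 by 1.54 on the log2 scale (SE 0.15, adjusted p = 3.94e-06). Mock cells differed by 0.18 (95% interval -0.05 to 0.41, adjusted p = 0.202), and with LPS the gene was 2.58-fold lower in MPI-2 (adjusted p = 3.61e-08).

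The balance of both receptor kinds was described for each array as the mean of Fcgr1, Fcgr3 and Fcgr4 minus Fcgr2b, each gene first centred on its mean over the 12 arrays. It was 1.76, 1.53 and 1.34 in mock BMM and -0.03, 0.29 and 0.46 in LPS BMM. In MPI-2 it was 0.30, 0.15 and 0.16 in mock cells and -2.10, -1.82 and -2.04 with LPS. The LPS arrays lay below the mock arrays in each cell type. In BMM Fcgr2b rose while 1 of 3 activating genes rose, and in MPI-2 all 3 activating genes fell. LPS BMM and mock MPI-2 overlapped, at 0.24 ± 0.25 and 0.20 ± 0.085 (mean ± SD, n = 3), while holding different absolute levels. The zero of this measure is set by the centring, so only differences between groups can be read, and no test was made of it.

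**Figure D3:**
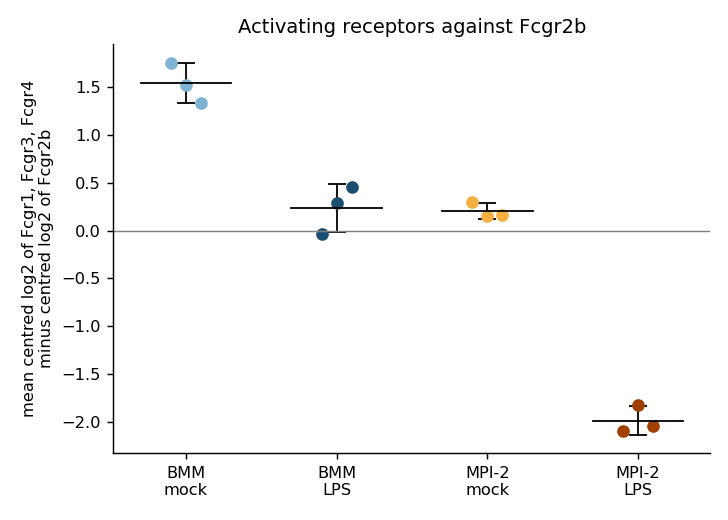
Mean centred log2 expression of Fcgr1, Fcgr3 and Fcgr4 minus that of Fcgr2b (vertical axis) per array, with a bar at the mean and whiskers of 1 SD (n = 3 per group). The 3 LPS MPI-2 arrays lie between -2.10 and -1.82, below all others.

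The Ms4a genes split into 3 that MPI-2 hardly made and 1, Ms4a6d, that it made well above background. Ms4a7 and Ms4a6b were under the background level on all 6 MPI-2 arrays, and Ms4a6c was within 0.5 of it. Ms4a6d was at 7.64 in mock BMM and 7.56 in mock MPI-2, a difference that passed only under other scalings. In mock cells 5 of the 9 members passed as lower in MPI-2 and none as higher (0 at an unadjusted p of 0.05 in limma), with Fcgr1 and Fcer1g beside these 3. Among all genes 38.6% passed, 20.6% higher and 18% lower. With LPS all 9 passed as lower, beside 44.1% of all genes, 22.5% higher and 21.6% lower. The members' median log2 difference was -0.74 in mock and -4.31 in LPS cells, beside -0.10 and -0.14 over all genes.

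Ms4a7 was at 9.77, 9.51 and 9.64 in mock BMM, 9.38, 9.20 and 9.48 in LPS BMM, 2.83, 2.87 and 2.68 in mock MPI-2 and 2.76, 2.85 and 3.11 in LPS MPI-2. The gene is a macrophage member of the family, and no MPI-2 array reached background. Set against the background level, it was at least 77.3-fold lower in mock MPI-2 and at least 63.6-fold lower in LPS MPI-2 than in BMM (adjusted p = 2.45e-14 and 2.29e-14). Its response to LPS in BMM was -0.28 ± 0.13 and did not pass (adjusted p = 0.139).

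Ms4a6b gave 7.27, 8.14 and 7.72 in mock BMM, 7.25, 7.48 and 8.01 in LPS BMM, 2.70, 2.67 and 2.62 in mock MPI-2 and 2.80, 2.71 and 2.71 in LPS MPI-2. The BMM groups overlapped, with a response of -0.13 (95% interval -0.56 to 0.30, adjusted p = 0.706). It was at least 20.3-fold lower in mock MPI-2 and at least 18.6-fold lower with LPS (adjusted p = 2.5e-11 and 2.67e-11).

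Ms4a6c, the neighbour that shares start sequence with Ms4a6b, responded to LPS in BMM. Its values rose from 9.12, 9.32 and 8.91 to 9.99, 9.96 and 10.44 there, a difference of 1.01 ± 0.17 (adjusted p = 0.000349). MPI-2 arrays gave 3.83, 3.71 and 3.40 in mock and 3.56, 3.09 and 3.22 with LPS, of which 3 and 1 were above background. It was 44.3-fold lower in mock MPI-2 (adjusted p = 2.73e-12) and at least 109-fold lower with LPS (adjusted p = 1.77e-13). The responses differed by -1.37 ± 0.25 (adjusted p = 0.0012), though a fall in MPI-2 could hardly be seen so close to background.

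Ms4a6d was the Ms4a member with a full signal in both cell types. Mock arrays held 7.61, 7.62 and 7.70 in BMM and 7.60, 7.69 and 7.40 in MPI-2, and the groups overlapped. LPS arrays held 9.04, 9.23 and 9.48 in BMM and 7.47, 7.36 and 7.65 in MPI-2. Only the LPS BMM group stood apart. LPS raised the gene by 1.61 ± 0.14 in BMM (adjusted p = 2.7e-07), and the response in MPI-2 was -0.07 (95% interval -0.36 to 0.22, adjusted p = 0.863). The responses differed by -1.68 ± 0.19 (adjusted p = 2.02e-05). The mock difference was -0.08 (95% interval -0.37 to 0.22, adjusted p = 0.69), and with LPS the gene was 3.38-fold lower in MPI-2 (adjusted p = 3.61e-08). The mock difference passed after cyclic loess (-0.51, adjusted p = 0.00834) and after repeated quantile normalization (-0.44, adjusted p = 0.0119).

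**Figure D4:**
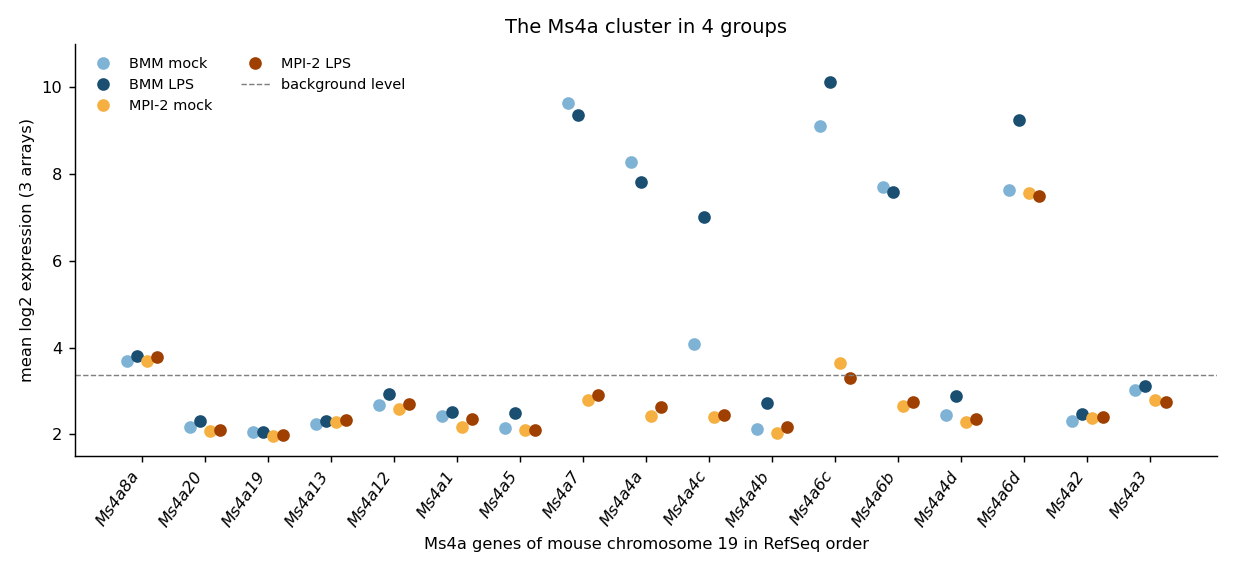
Mean log2 expression (vertical axis, 3 arrays per group) of the 17 measured Ms4a genes of the chromosome 19 cluster in RefSeq order (horizontal axis), with a dashed line at the background level. More than 1 above that line are 5 genes in mock BMM, 6 in LPS BMM and, in both MPI-2 groups, Ms4a6d alone.

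The rest of the Ms4a cluster was measured too. Of its 17 measured genes, the 4 members included, 5 were more than 1 log2 unit above background in mock BMM (Ms4a7, Ms4a4a, Ms4a6c, Ms4a6b and Ms4a6d) and 6 in LPS BMM, where Ms4a4c joined them. In either MPI-2 group, Ms4a6d alone was that far above background. Ms4a4c rose from 4.08 to 7.02 with LPS in BMM (2.94 ± 0.16, adjusted p = 2.03e-09) and was at 2.39 and 2.45 in MPI-2. Ms4a4a stood at 8.27 in mock BMM and at 2.42, below background, in mock MPI-2, at least 29.9-fold lower (adjusted p = 8.07e-14).

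Of the 15 measured other Ms4a and Tmem176 genes, 4 passed as higher and 1 as lower with LPS in BMM, beside 10.3% and 15.4% of all genes. None passed in MPI-2, beside 5.17% and 9.58%, and limma gave 0 there at an unadjusted p of 0.05. Of the 15, 7 were above background in some group. In each MPI-2 group 3 were, Ms4a8a, Ms4a10 and Ms4a15, at most 1.40-fold over it, so a fall in MPI-2 could hardly be seen. With any of mock BMM replicates 2 and 3 or LPS BMM replicates 2 and 3 left out, 2 passed as higher in BMM, and the lower gene, Ms4a4a, no longer passed without mock BMM replicate 2 or LPS BMM replicate 1, nor after cyclic loess. The higher count was also 2 among genes above background. In mock MPI-2 against BMM none was higher (0 at an unadjusted p) and 4 were lower, beside 20.6% and 18% of all genes. Among the 4 were Tmem176b (7.23 against 3.11) and Tmem176a (4.47 against 2.51), which encode related membrane proteins. The median log2 difference of this list was 0.21 with LPS in BMM, beside 0.04 over all genes.

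Among the 14 measured other Fc receptors and Fc-binding proteins, 5 were above background in some group. With LPS, 3 passed as higher and 1 as lower in BMM, beside 10.3% and 15.4% of all genes. In MPI-2, 1 passed as higher and none as lower (0 lower at an unadjusted p of 0.05 in limma), beside 5.17% and 9.58%. Trim21, the cytosolic receptor for antibody on invading pathogens, rose from 6.89 to 9.20 in BMM (2.31 ± 0.11, adjusted p = 6.66e-10) and was at 6.39 and 6.18 in MPI-2. Its responses differed by -2.52 ± 0.16 (adjusted p = 6e-08). Fcrlb, a neighbour of Fcgr2b, rose by 0.75 ± 0.16 in BMM and by 1.43 ± 0.16 in MPI-2 (adjusted p = 0.00239 and 1.5e-05). Fcrls, an Fc receptor-like gene, fell from 5.69 to 4.20 in BMM (adjusted p = 7.49e-05) and was at 2.55 and 2.32 in MPI-2, below background. In MPI-2 against BMM, 1 was higher and 3 lower in mock cells, beside 20.6% and 18% of all genes. With LPS, 1 was higher and 7 lower, beside 22.5% and 21.6%. The count of 7 became 3 after cyclic loess or repeated quantile normalization, 4 with array medians subtracted and 2 among genes with a mean above background. It was 4 without LPS BMM replicate 3 or without LPS MPI-2 replicate 1 or 2, and Fcer1a, Fcer2a and Fcamr among the 7 were below background in all groups.

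A list of genes that pass the signal on from activating receptors, with Tyrobp, a chain parallel to Fcer1g, among them, changed in both directions. Of 26 measured, 6 rose and 4 fell with LPS in BMM, beside 10.3% and 15.4% of all genes, with a median of -0.12. After repeated quantile normalization 3 rose and 7 fell there. In MPI-2, 4 rose and 8 fell, beside 5.17% and 9.58% of all genes, with a median of -0.31. The MPI-2 counts also moved with the setting, the lower one being 5 after repeated quantile normalization and 13 with array weights. Leaving out each array in turn gave 2 to 6 higher and 2 to 9 lower. They became 2 higher and 2 lower without mock MPI-2 replicate 1 and 2 and 4 without LPS MPI-2 replicate 1. The higher count was also 2 without mock MPI-2 replicate 3, and the lower count was 3, 3 and 5 without mock MPI-2 replicate 2 and LPS MPI-2 replicates 2 and 3. The kinase gene Src rose from 5.40 to 7.72 in BMM (adjusted p = 9.31e-08) and was at 3.83 and 4.17 in MPI-2, with responses that differed by -1.98 ± 0.25 (adjusted p = 5.41e-05). Lcp2, the adaptor SLP-76, rose by 1.85 ± 0.11 in BMM and by 0.56 ± 0.11 in MPI-2 (adjusted p = 5.57e-09 and 0.00205).

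Vav1, a signalling protein of blood cells, fell from 8.11 to 7.11 in BMM and from 8.04 to 7.15 in MPI-2 (adjusted p = 0.000213 and 0.00106). Tyrobp (DAP12), a signalling chain like Fcer1g, fell from 8.99 to 7.32 in BMM (adjusted p = 4.19e-06). In mock cells 11 of the 26 were higher and 10 lower in MPI-2, beside 20.6% and 18% of all genes, with 7 higher after cyclic loess or repeated quantile normalization. Fgr, a Src-family kinase, was at 7.28 against 5.11 (adjusted p = 9.68e-08). Lat2, an adaptor, was at 4.08 against 6.93 (adjusted p = 3.73e-10).

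A list of 15 inhibitory genes, all measured, joined signalling genes with separate inhibitory receptors (Pirb, Cd300a, Sirpa and Lilrb4a). With LPS in BMM, 3 passed as higher and 7 as lower, beside 10.3% and 15.4% of all genes, with a median of -0.09. The lower count became 4 without LPS BMM replicate 3 and with only the BMM arrays fitted. In MPI-2, 1 rose and 4 fell, beside 5.17% and 9.58% of all genes, with a median of -0.29. There 2 rose after cyclic loess, and 2 rose and 7 fell with array weights. Inpp5d, the SHIP1 phosphatase recruited by Fcgr2b, fell from 9.13 to 7.51 in BMM and from 7.57 to 6.13 in MPI-2 (adjusted p = 1.49e-06 and 1.33e-05), opposite to Fcgr2b in both. Cd300a, an inhibitory receptor, fell by 2.42 on the log2 scale in BMM and by 1.26 in MPI-2 (adjusted p = 1.63e-07 and 0.00031). Pirb, an inhibitory receptor for MHC class I, rose from 8.81 to 10.4 in BMM (adjusted p = 6.87e-06) and was at 5.19 and 4.79 in MPI-2. Csk, a kinase that restrains Src kinases, fell by 0.90 in BMM and by 1.21 in MPI-2 (adjusted p = 0.000777 and 0.000115). The difference of its responses did not pass (-0.31, adjusted p = 0.521). In MPI-2, Cblb, a ubiquitin ligase, rose by 0.82 ± 0.16 (adjusted p = 0.00202).

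A list of complement-related receptors (Itgam, Itgax, Itgb2, Vsig4, C3ar1, C5ar1 and Cd93), not all of which bind opsonins, was measured beside the Fc receptors. Of 7 measured, none rose (1 at an unadjusted p of 0.05 in limma) and 3 fell with LPS in BMM, beside 10.3% and 15.4% of all genes. There 1 passed as higher without mock BMM replicate 2 or LPS BMM replicate 1 and after cyclic loess or repeated quantile normalization. In MPI-2, 3 rose and 1 fell, beside 5.17% and 9.58% of all genes. There 2 fell without LPS BMM replicate 2 or 3 and after repeated quantile normalization, and 3 fell after cyclic loess. Itgax (CD11c) rose from 5.81 to 7.90 in MPI-2 (2.09 ± 0.17, adjusted p = 3.79e-07) and was at 3.89 and 4.34 in BMM. Itgam (CD11b) was at 8.39 in mock BMM and 5.07 in mock MPI-2 (adjusted p = 1.94e-11), and LPS moved it by -0.72 ± 0.13 in BMM and by 0.57 ± 0.13 in MPI-2 (adjusted p = 0.000475 and 0.0059). Itgb2 (CD18), the chain both pair with, fell by 1.37 in BMM (adjusted p = 2.15e-06). In MPI-2 its change of -0.41 did not pass (adjusted p = 0.0674), and the responses differed by 0.96 ± 0.20 (adjusted p = 0.00381). It was higher in MPI-2 by 0.79 in mock and by 1.74 in LPS cells (adjusted p = 0.000301 and 5.26e-08).

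On chromosome 1, Fcgr2b, Fcgr4 and Fcgr3 follow each other with the long noncoding gene Gm10522 between the first and second of them, and Fcer1g lies further along. Named after their values were seen, Gm10522 rose from 3.05, below background, to 4.79 in BMM, at least 2.69-fold (adjusted p = 9.54e-06), and Adamts4, which follows Fcer1g and encodes a matrix protease, rose from 3.45 to 5.91 (2.46, adjusted p = 3.42e-07). In MPI-2, Gm10522 stood at 2.90, below background, in mock and at 3.73 in LPS cells, at least 1.29-fold higher (adjusted p = 0.0115). That call was lost in 2 of 12 fits with 1 array left out and kept in 2 of 3 other scalings. Fcgr3, which lies between Fcgr4 and Fcer1g, did not pass in BMM. Other genes of this stretch fell there: Sdhc (-0.73, adjusted p = 0.0191), Pcp4l1 (-0.45, adjusted p = 0.00652) and Dusp12 (-0.60, adjusted p = 0.013). Sdhc passed in 10 of 12 fits with 1 array left out, and in the same direction in 1 of 3 other scalings. Apoa2 rose by 0.48 (adjusted p = 0.0236) and Fcrlb by 0.75 (adjusted p = 0.00239). Fcrla, Cfap126, Nr1i3 and Tomm40l did not pass in BMM.

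The genes most like each member were found by the root mean square (RMS) difference of centred log2 values over the 12 arrays, among 11278 genes. Nearest to Fcgr4 was Irgm1, an interferon-induced GTPase (RMS 0.33), at 7.23, 9.43, 6.19 and 5.13 in mock BMM, LPS BMM, mock MPI-2 and LPS MPI-2. Fcgr2b had the closest partners, the syntaxin Stx6 (0.11) and the transcription factor Stat5a (0.15). Fcgr1 was nearest to Nav1 (0.33) and Antxr2 (0.35), and Fcgr3 to Smarca2 (0.27) and Rnpep (0.33). Ms4a7 was nearest to C1qb, a chain of complement C1q (0.29), which measured 9.98 in mock BMM and 2.97 in mock MPI-2. Ms4a6b was nearest to Pde7b (0.26) and Cd72 (0.30), and Ms4a6c to Fyb (0.32).

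Cells other than macrophages also carry some of these receptors, and their markers were measured beside them. Of the 7 B cell markers, 3, 4, 1 and 2 were above background in mock BMM, LPS BMM, mock MPI-2 and LPS MPI-2, and Ms4a1, Cd79a and Ebf1 were below it in all 4. Their summed log2 level ranged over arrays from 21.3 to 22.3, 21.2 to 22.9, 19.9 to 20.3 and 20.0 to 22.0. Of the 9 mast cell and basophil markers, 2, 2, 1 and 1 were above background, with summed levels of 24.7 to 25.7, 27.1 to 28.1, 23.1 to 24.5 and 25.4 to 26.0, and Fcer1a, Ms4a2, Kit and Cpa3 were below background in all groups. Hdc of that list, which makes histamine, was above it in all groups and rose with LPS from 3.51 to 4.95 in BMM and from 3.47 to 5.15 in MPI-2 (adjusted p = 5.71e-06 and 3.01e-06). Of the 7 T and NK cell markers, Cd3e alone was above background in each group, with summed levels of 18.97 to 20.02, 19.7 to 20.3, 18.4 to 18.9 and 18.3 to 19.3.

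Of 8 neutrophil markers 3 were above background in each group, with summed levels of 24.7 to 25.9, 24.5 to 25.8, 25.9 to 26.6 and 27.4 to 28.3. Ly6g, S100a9, Mpo and Ltf were below background in all groups. S100a8 of that list was above background in all groups, at 3.39 and 3.52 in BMM, and rose with LPS from 4.80 to 6.57 in MPI-2 (adjusted p = 2.75e-06). Cxcr2 was at 4.19 in mock MPI-2 and at 2.82, below background, in LPS MPI-2 (adjusted p = 8.92e-06). Of 7 dendritic cell markers 3, 4, 3 and 3 were above background, with summed levels of 22.57 to 24.01, 22.9 to 25.2, 25.3 to 26.7 and 25.4 to 26.5. Clec9a was at 5.83 and 5.35 in mock and LPS MPI-2 and at 2.89 and 3.18 in BMM. Xcr1 went the other way, above background in both BMM groups and below it in both MPI-2 groups. Zbtb46 and Ccr7 were above background throughout, and Flt3 and Siglech below it. The part of these cells in the results was not tested. The macrophage markers themselves summed to 95.9 to 97.2 in mock BMM, 86.2 to 88.8 in LPS BMM, 84.3 to 85.2 in mock MPI-2 and 85.2 to 85.5 in LPS MPI-2.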

How the data were processed

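The authors deposited 1 table of log2 expression values per probe set and array, made with RMA and affy, in versions that the sources used here do not give, per the submitters' processing notes. RMA brings arrays to a common distribution before probe sets are summarised, and array medians of the deposited values still ranged from 3.6 to 3.79. An overall change in new RNA cannot be read from these values. Of 34760 probe sets, 21640 named 1 gene, 1321 several and 11799 none, and where a gene had several probe sets the one with the highest mean stood for it, giving 19937 genes. Symbols were updated by Entrez identifier through RefSeq GRCm38.p6 (19855 matched). No gene was filtered out. Groups came from the sample titles. A model of 4 group means over 12 arrays was fitted with limma 3.58.1 in R 4.3.3 (8 residual and 6.99 prior degrees of freedom), with p-values adjusted by Benjamini-Hochberg over all genes and a threshold of 0.05, and was checked on simulated data. The comparisons were LPS against mock in each cell type, MPI-2 against BMM within each treatment, and the difference of both LPS responses (MPI-2 minus BMM). Genes described from each list were picked among those with the smallest adjusted p or called against the direction of most of the list. Not all such genes are described. The nearest genes were named only for members whose group means spanned at least 2 (log2). Members and lists were chosen with earlier results of these data known. An array has no read depth, and 3 of them per group limit the precision. Alternatives covered scaling, filters, probe sets, model, threshold and arrays left out.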

Additional observations from a re-analysis of the deposited data

Results flagged for a closer look

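For 6 of the 9 genes the response to LPS differed between the cell types by limma's test of the difference itself (MPI-2 minus BMM, log2 scale, n = 3 arrays per group). Fcgr4 differed most, by -4.10, with all LPS arrays above mock in BMM and below mock in MPI-2. The other activating receptors Fcgr1 and Fcgr3 differed by -1.38 and -1.82. Fcgr2b, the inhibitory receptor, differed by -1.54 while rising in both cell types. Ms4a6d differed by -1.68 and Ms4a6c by -1.37, the latter with MPI-2 values close to background. Over all genes, 13.4% passed this test, 7.08% higher and 6.27% lower.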

How the results depend on the processing

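The 45 member results were recomputed in 27 alternatives, giving 1206 values. Of these, 1183 stayed on their side of the threshold, 18 newly passed, 5 no longer passed and none that passed reversed, while 11 values that did not pass had the other sign. Some alternatives could not move a member's log2 difference. Each member had 1 probe set, so averaging probe sets left its values as they were. An array left out from a group not compared also left the difference unchanged. Of 29 results that passed, 25 did so under all alternatives run, and the others (Fcer1g in BMM and in MPI-2 against BMM, mock and LPS, and Fcgr2b in MPI-2) failed a required log2 difference of at least 1, and Fcer1g in mock cells also failed with the library number as replicate block, an alternative added after seeing the data (-0.57). In mock MPI-2 against BMM, 8 members passed as lower after cyclic loess and 8 after repeated quantile normalization, in place of 5, with Fcgr3 at -0.62 and -0.51, Fcgr4 at -0.70 and -0.76 and Ms4a6d at -0.51 and -0.44, and Fcgr2b passed as higher (0.37) with array medians subtracted. The cause was not tested. Ms4a7 passed in BMM after quantile normalization (-0.61), and Ms4a6b passed in BMM (-0.56) and for the difference of responses (0.64) without mock BMM replicate 1 and LPS BMM replicate 3. Over all genes, the counts of 5114, 2941, 7687, 8800 and 2662 (LPS in BMM, LPS in MPI-2, mock, LPS, difference) became 1823, 823, 3063, 3488 and 1498 with a log2 difference of at least 1. At an adjusted p of 0.01 they were 1955 for LPS in MPI-2 and 1600 for the difference, and for LPS in MPI-2 5026 with only the arrays compared and 5183 with array weights. With array medians subtracted, 5032 genes were higher and 1910 lower in mock cells, in place of 4108 and 3579, and 5141 and 2242 with LPS, in place of 4488 and 4312. Arrays with the same title number did not deviate together (18 correlations from -0.154 to 0.242, 2 over 0.1), so these numbers were not taken to pair samples. In mock MPI-2 the library names number the arrays otherwise than the titles, and arrays with the same library number gave 15 correlations from -0.0933 to 0.242, 5 over 0.1. With the title number as replicate block, member counts stayed at 5, 4, 5, 9 and 6, and all genes gave 5182, 2988, 7631, 8786 and 2686. With the library number as replicate block they were 5, 4, 4, 9 and 6, and 5012, 2528, 6493, 8556 and 2294. Signals near background limit Ms4a7, Ms4a6b and Ms4a6c in MPI-2, and Fcgr1 and Fcgr4 in LPS MPI-2.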
